A study of Mus musculus with 6 samples.

Results

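The mitosis genes are 37 genes whose products carry a cell from late G2 through chromosome segregation and cytokinesis. They were chosen by name, and the brightest probe set by mean over all 6 arrays stood for each gene. Of the 37, 36 had a probe set named for them alone in the platform annotation, and all 36 lay above the filter for dim probe sets, each array's 40th percentile, on all 6 arrays. They were tested among 12571 genes. The cyclin gene Ccnb1 was not analysed here.

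The RNA came from CD8 T cells of MCA-205 tumours, fibrosarcomas grown from a transplanted mouse cell line. The hosts were male C57BL/6 Eomes-GFP reporter mice, in which GFP marks expression of Eomes, a T-box factor of effector and memory T cells. Each host was given aOX40, an antibody to a costimulatory receptor (250 ug, days 12 and 16), together with aCTLA-4, an antibody to an inhibitory receptor (200 ug, days 12, 14 and 16), before tumour collection at day 19. Sorting by flow cytometry gave GFP-positive cells (Eomes+, 3 arrays) and GFP-negative cells (Eomes-, 3 arrays), so both groups share the reporter, the tumour and both antibodies. Untreated hosts were not analysed here. The design text speaks of 3 independent experiments, but no label ties an array to an animal or experiment, and every p-value below rests on the spread between these samples.

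Mitotic entry is driven by CDK1 with its A- and B-type cyclins and by the Polo-like and Aurora kinases. A spindle of microtubules, motor proteins and kinetochores then aligns the chromosomes, and the spindle assembly checkpoint holds back the anaphase-promoting complex (APC/C) until every kinetochore is attached. Transcripts of these genes are low in resting cells and build up before division, through the MuvB complex with B-MYB and FOXM1. T cells proliferate strongly after activation, so the genes are widely read as markers of dividing T cells, but any dividing cell in a tumour also carries these transcripts.

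MuvB complexes bind a short promoter element called CHR (searched here as TTTGAA or TTCGAA), often downstream of CCAAT boxes bound by NF-Y. Promoters of 300 bases (250 before and 50 after the start, RefSeq, GRCm38.p6) were at hand for 30 of the 36 genes. On either strand, 24 of 30 (80.0%) held a CHR element, 22 (73.3%) a CCAAT box and 21 (70.0%) both. Among 10125 tested genes with a promoter the shares were 13.7%, 38.0% and 5.5%, and among all 27025 promoters 19.4%, 37.8% and 7.6%. The median GC content was 58.8% in the mitosis promoters, against 60.7% in those of tested genes and 52.7% in all. A match describes the letters in the window and is not evidence of binding. The 120 bases before the start are given for 6 genes, 5′ to 3′ on the gene's strand, with matches on either strand in capitals (TTCAAA and ATTGG are their reverse complements). Plk1, Kif11 and Cenpa are the genes whose Eomes+ and Eomes- arrays did not overlap, and Cdk1, Ube2c and Cdc20 are genes that spread widely between arrays. The regions are chr7:122159315-122159434 (+ strand) for Plk1, chr19:37376262-37376381 (+) for Kif11, chr5:30666766-30666885 (+) for Cenpa, chr10:69352913-69353032 (- strand) for Cdk1, chr2:164769809-164769928 (+) for Ube2c and chr4:118437344-118437463 (-) for Cdc20.
Plk1: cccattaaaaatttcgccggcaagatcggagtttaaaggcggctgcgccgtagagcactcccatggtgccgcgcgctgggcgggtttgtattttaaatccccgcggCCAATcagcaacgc
Kif11: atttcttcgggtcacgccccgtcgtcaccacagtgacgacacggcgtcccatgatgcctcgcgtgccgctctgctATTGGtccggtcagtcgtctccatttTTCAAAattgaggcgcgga
Cenpa: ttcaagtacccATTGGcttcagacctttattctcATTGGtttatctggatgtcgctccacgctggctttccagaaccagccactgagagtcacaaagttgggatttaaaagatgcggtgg
Cdk1: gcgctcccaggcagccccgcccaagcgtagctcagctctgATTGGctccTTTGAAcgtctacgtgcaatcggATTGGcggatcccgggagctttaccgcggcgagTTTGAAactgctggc
Ube2c: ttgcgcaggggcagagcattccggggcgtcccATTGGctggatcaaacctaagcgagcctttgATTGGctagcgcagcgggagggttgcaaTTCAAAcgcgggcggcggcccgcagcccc
Cdc20: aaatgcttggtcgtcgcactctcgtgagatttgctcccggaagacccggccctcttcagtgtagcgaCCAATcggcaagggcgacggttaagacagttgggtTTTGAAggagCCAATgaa
Kif11, Cdk1, Ube2c and Cdc20 each held a CHR element within this stretch, whose leftmost base lay at -19, -15, -29 and -18 from the start (Cdk1 had another at -71). In Plk1 and Cenpa the element lay after the start, at +31 and +17, outside the stretch shown. No CHR match overlapped a CCAAT match in these 6 promoters.

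The sort was checked on Eomes, whose log2 signal was 10.38, 9.86 and 8.38 on the Eomes+ arrays, against 6.85, 6.89 and 5.42 on the Eomes- arrays, with no overlap (8.90-fold higher; limma unadjusted p = 0.00205, adjusted p = 1.00, or 0.0167 with the replicate number as a block). Eomes- array 3 lay below the filter, so the fold rests in part on a dim value. Array medians lay between 6.35 and 6.42 log2. Cd8a was bright on every array, at 13.05, 12.83 and 11.95 log2 in Eomes+ and 13.48, 13.55 and 12.56 in Eomes-. RNA of other cells was present and varied between arrays. The mean of 20 tested of 23 tumour and fibroblast genes ranged from 8.89 to 11.62 log2 over the Eomes+ arrays and from 8.70 to 11.67 over the Eomes- arrays, and that of 19 tested of 21 macrophage and monocyte genes from 8.78 to 11.11 and from 8.50 to 11.08. Of the markers of these 2 lists, Lum and Cd163 lay below the filter. Fewer cells of a type and less RNA per cell cannot be told apart in such samples.

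Mitosis genes were measured above the filter in both fractions, and none of them passed the test between fractions. Of the 36, 21 had a lower mean in Eomes+ cells and 15 a higher one (58.3% lower, beside 52.6% of all genes tested), with a median difference of -0.06 log2, beside -0.02 over all genes. The direction of that median was not stable. Without Eomes+ replicate 1 it was 0.08 log2 and without Eomes- replicate 3 0.12. With array weights it was 0.15, and 12 of 36 were lower (33.3%, beside 52.2% of all genes). After centring each array on T cell markers 12 were also lower, but beside only 23.5% of all genes. That centring moved the median of all genes to 0.20 and that of the members to 0.158, so the members still lay below all genes. Differences ran from -0.98 to 0.54 log2, and 0 members reached a 2-fold difference (1.82% of all genes did). limma called 0 of 36 members at an adjusted p under 0.05, as it called 0 of 12571 genes (0.0%), while alternative fits with the replicate number as a block or with array weights called 17 and 253 genes and 0 members. At an unadjusted p under 0.05 there were 409 genes, among them 2 members, both lower in Eomes+, Plk1 and Kif11 (5.56%, beside 3.25% of all genes, 2.04% lower and 1.22% higher). The groups did not overlap for 3 members, all lower in Eomes+, Plk1, Kif11 and Cenpa (8.33%, beside 7.71% of all genes, 4.66% lower and 3.05% higher). The limma adjusted p was 1.00 for each of the 36. Of these genes, 18 had several kept probe sets, which shared a direction for 11 and differed for 7 (Bub1b, Ccna2, Cdc20, Foxm1, Hmmr, Kif2c and Top2a). Aurkb, Bub1b, Cdc20, Foxm1, Kif2c, Stmn1 and Prc1 were read by probe sets of a design that can also bind related transcripts.

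**Figure D1:**
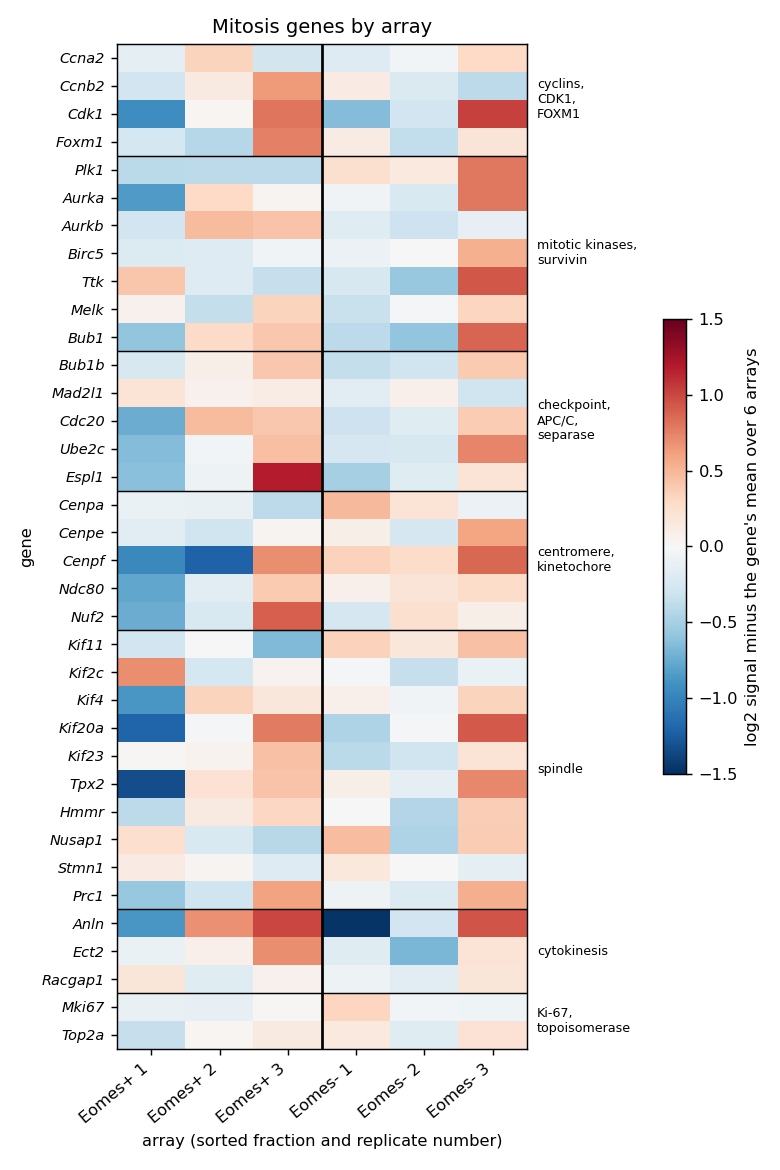
Log2 signal of the 36 mitosis genes on each of the 6 arrays, minus the gene's own mean over the arrays (colour), with Eomes+ arrays left of the black line and genes grouped by role. The number 3 columns of both fractions are mostly red, and Plk1, Kif11 and Cenpa are bluer on all 3 Eomes+ arrays than on any Eomes- array.

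The proliferation markers overlapped between the fractions. Mki67, which encodes Ki-67, a coat protein of mitotic chromosomes found in all cycling cells, had 11.74, 11.73 and 11.88 log2 in Eomes+ cells, against 12.18, 11.81 and 11.79 in Eomes- cells. The ranges overlapped, and the difference of -0.15 log2 (SE 0.15) had a 95% interval from -0.50 to 0.21. Top2a, the topoisomerase that untangles sister chromatids, had 9.78, 10.15 and 10.25 log2 in Eomes+ cells, against 10.26, 9.94 and 10.34 in Eomes- cells (difference -0.12, 95% interval -0.63 to 0.39). Stmn1, a microtubule-destabilising protein counted among the spindle genes below, had 12.50, 12.41 and 12.18 log2 in Eomes+, against 12.52, 12.38 and 12.22 in Eomes-. Its difference of -0.01 log2 had the narrowest 95% interval of the 36, from -0.34 to 0.31. These intervals limit, at this array number, how far each gene could differ, and do not show that the fractions are equal.

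Cyclins, CDK1 and FOXM1 lay on both sides. Ccna2, the cyclin of S phase and mitotic entry, had 10.34, 10.81 and 10.20 log2 in Eomes+ cells, against 10.27, 10.43 and 10.77 in Eomes- cells. Ccnb2, a B-type cyclin, had 9.28, 9.70 and 10.20 log2 in Eomes+, against 9.68, 9.34 and 9.16 in Eomes- (difference 0.33, SE 0.29). Neither gene separated the fractions. Cdk1, the mitotic kinase itself, had 8.60, 9.56 and 10.34 log2 in Eomes+, against 8.89, 9.24 and 10.56 in Eomes-. Its fraction means differed by -0.06 log2 (SE 0.58), while the means of the arrays of one replicate number spanned 1.70 log2. Foxm1, the transcription factor of late cell cycle genes, had 7.74, 7.57 and 8.75 log2 in Eomes+, against 8.13, 7.63 and 8.20 in Eomes- (0.04, SE 0.39). For both genes array 3 was the highest of its fraction.

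Among the mitotic kinases, Plk1 had the clearest separation. Plk1, the Polo-like kinase of mitotic entry, centrosomes and cytokinesis, had 6.94, 6.96 and 6.95 log2 in Eomes+ cells, against 7.59, 7.49 and 8.13 in Eomes- cells. Every Eomes+ array lay below every Eomes- array, and Plk1 averaged 6.95 ± 0.01 log2 in Eomes+ cells and 7.74 ± 0.34 in Eomes- cells (SD, n = 3 each), a 1.72-fold lower signal (difference -0.79, SE 0.26; limma unadjusted p = 0.0216, adjusted p = 1.00). Its promoter, shown above, carries a CCAAT box at -14. A single probe set stood for it, so no other reading of the gene was at hand. Within replicate numbers 1, 2 and 3 the Plk1 differences were -0.64, -0.54 and -1.18 log2, and without Eomes- replicate 3, its brightest array, the difference was -0.59 log2 (limma unadjusted p = 0.0595).

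The Aurora kinases differed in opposite directions. Aurka, which acts at centrosomes and spindle poles, had 7.90, 9.04 and 8.79 log2 in Eomes+ cells, against 8.70, 8.52 and 9.54 in Eomes- cells (difference -0.34, SE 0.41). Aurkb, the kinase of the chromosomal passenger complex at centromeres and midzone, had 8.42, 9.19 and 9.14 log2 in Eomes+, against 8.53, 8.41 and 8.60 in Eomes- (0.41, SE 0.28). For Aurkb, 2 of the 3 Eomes+ arrays lay above every Eomes- array, and its other kept probe set also had a higher mean. Birc5, the passenger subunit survivin, had 9.33, 9.33 and 9.48 log2 in Eomes+, against 9.45, 9.54 and 10.07 in Eomes- (-0.30, SE 0.23), opposite in sign to its partner Aurkb. Neither Aurora kinase nor Birc5 passed, and the differences between these genes were not tested. Ttk (MPS1, a checkpoint kinase) had 8.16, 7.55 and 7.40 log2 in Eomes+, against 7.50, 7.17 and 8.67 in Eomes-, and Bub1, a kinetochore kinase of the same checkpoint, had 7.15, 8.02 and 8.14, against 7.35, 7.15 and 8.61. Their differences, -0.08 and 0.07 log2, and that of the kinase gene Melk, 0.02, were smaller than their SE.

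Of the checkpoint, APC/C and separase genes, 4 of 5 had a higher mean in Eomes+ cells, with a median of 0.17 log2. Mad2l1, the checkpoint protein that sequesters CDC20, had 9.81, 9.66 and 9.72 log2 in Eomes+ cells, against 9.44, 9.68 and 9.31 in Eomes- cells (0.25, SE 0.19). All Eomes+ arrays but array 2 lay above every Eomes- array. Bub1b, which encodes the checkpoint protein BUBR1, differed by 0.17 log2 (SE 0.32), and 2 of its 3 kept probe sets had the opposite sign. Cdc20, the APC/C activator, had 8.84, 10.06 and 9.99 log2 in Eomes+, against 9.27, 9.40 and 9.96 in Eomes-, and Ube2c, the ubiquitin-conjugating enzyme of the APC/C, had 11.09, 11.70 and 12.18, against 11.48, 11.50 and 12.46. Both genes overlapped between the fractions (0.08 and -0.16 log2). Espl1, the separase that cleaves cohesin, had 7.97, 8.52 and 9.77 log2 in Eomes+, against 8.09, 8.41 and 8.79 in Eomes- (0.32, SE 0.49). Eomes+ array 3 alone lay above the Eomes- range.

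The mean was lower in Eomes+ cells for all 5 genes placed here in the centromere and kinetochore group, with a median of -0.36 log2. None of the 5 passed the test, and the shared sign depends on this grouping. Of genes placed with the kinases, the kinetochore kinase gene Bub1 (0.07 log2) and Aurkb (0.41) were higher, and Birc5 (-0.30) was lower. Of the checkpoint genes, Bub1b (0.17) and Mad2l1 (0.25) were higher and Ttk (-0.08) lower. Cenpa, the histone variant that marks centromeres, had 9.12, 9.11 and 8.83 log2 in Eomes+ cells, against 9.71, 9.43 and 9.13 in Eomes- cells. The groups did not overlap, although the gap between the nearest arrays was narrow, and the difference was -0.40 log2 (SE 0.23; limma unadjusted p = 0.133). Its other kept probe set also had a lower mean (-0.62 log2) but overlapped between fractions. Cenpf, a kinetochore and nuclear matrix protein that accumulates in G2, had 7.42, 7.17 and 9.08 log2 in Eomes+, against 8.73, 8.65 and 9.24 in Eomes-. This was the lowest difference of the 36 (-0.98, SE 0.53), and Eomes+ array 3 lay inside the Eomes- range, while another Cenpf probe set differed by -0.02 log2. Cenpe, the kinetochore kinesin, had 8.98, 8.84 and 9.18 log2 in Eomes+, against 9.23, 8.89 and 9.74 in Eomes- (-0.28, SE 0.28). Ndc80 and Nuf2 encode partners in the complex that grips microtubules. Ndc80 had 7.57, 8.18 and 8.74 log2 in Eomes+, against 8.43, 8.54 and 8.62 in Eomes- (-0.36, SE 0.34), and Nuf2 had 7.41, 7.93 and 9.05, against 7.91, 8.40 and 8.25 (-0.05, SE 0.45). For both, array 3 was the only Eomes+ array above the Eomes- range.

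**Figure D2:**
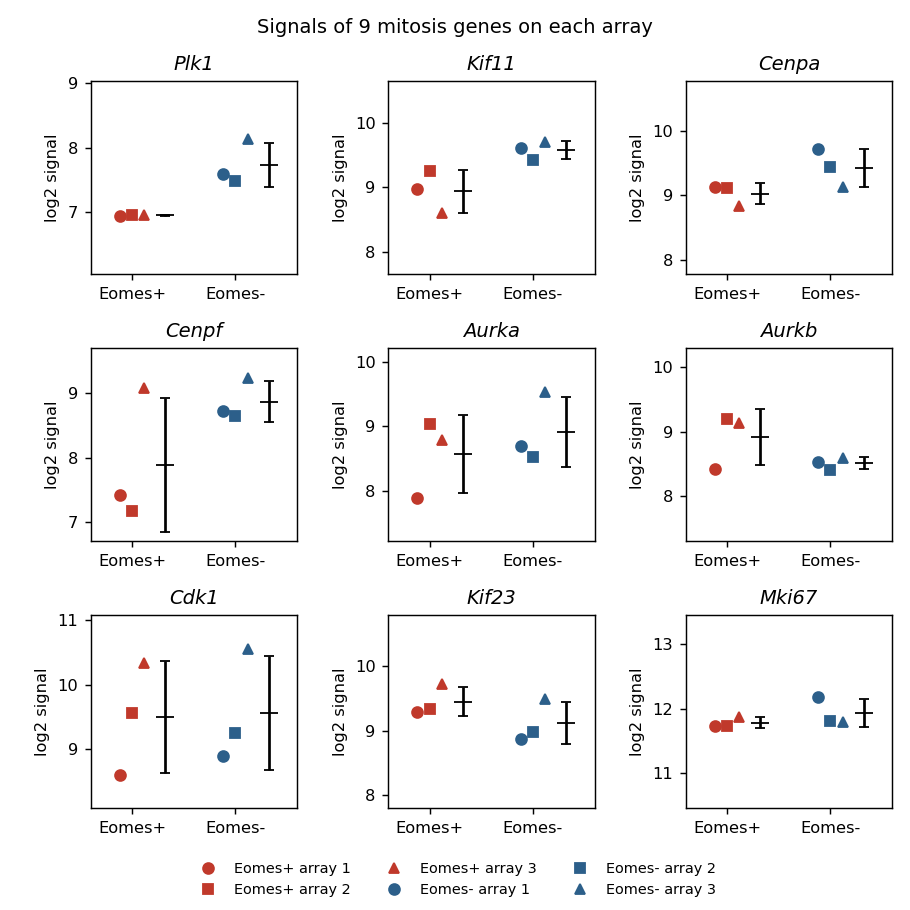
Log2 signal (y axis, 3 log2 units in every panel) of 9 mitosis genes on the Eomes+ and Eomes- arrays, with marker shapes for replicate numbers and the mean ± SD (n = 3) in black. Plk1, Kif11 and Cenpa show separate fractions, whereas Cdk1 varies far more between arrays of one fraction than between fractions.

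Of 10 spindle genes, 7 had a lower mean in Eomes+ (median -0.21 log2). Kif11 (Eg5), the motor that pushes spindle poles apart, had 8.97, 9.26 and 8.60 log2 in Eomes+ cells, against 9.61, 9.43 and 9.70 in Eomes- cells. No arrays overlapped, and Kif11 averaged 8.94 ± 0.33 log2 in Eomes+ and 9.58 ± 0.14 in Eomes- (SD, n = 3 each), a 1.56-fold lower signal (-0.64, SE 0.24; limma unadjusted p = 0.0356, adjusted p = 1.00). Its other 2 kept probe sets had the same sign, at -0.66 log2, with groups again apart, and -0.17 log2, with overlap. The interval of the main one ran from -1.22 to -0.06 log2, and without both arrays of number 3 its difference was -0.40 log2. Tpx2, the spindle assembly factor that activates Aurora A, had 7.66, 9.21 and 9.42 log2 in Eomes+, against 9.08, 8.86 and 9.71 in Eomes-. Eomes+ array 1 was by far the lowest of the 6, and the difference was -0.45 log2 (SE 0.51). Kif20a (MKLP2), a kinesin of the central spindle, had 8.58, 9.77 and 10.57 log2 in Eomes+, against 9.33, 9.77 and 10.71 in Eomes-, with array 1 lowest and array 3 highest in both fractions.

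Kif23 (MKLP1), the centralspindlin motor, had 9.30, 9.34 and 9.72 log2 in Eomes+ cells, against 8.87, 8.99 and 9.48 in Eomes- cells, and lay on the other side (0.34, SE 0.25). Only Eomes- array 3 reached the Eomes+ range. Its other kept probe set differed by 0.02 log2. Kif2c, the microtubule-depolymerising kinesin MCAK, had 9.20, 8.25 and 8.56 log2 in Eomes+, against 8.48, 8.17 and 8.41 in Eomes- (0.32, SE 0.31). Hmmr, a microtubule-binding spindle protein, differed by 0.04 (SE 0.33), while another of its probe sets differed by -0.64 log2. Prc1, a bundler of midzone microtubules, differed by -0.17 (SE 0.38), the chromokinesin gene Kif4 by -0.24 (SE 0.37) and Nusap1, a microtubule-binding protein, by -0.26 (SE 0.32). These 5 genes overlapped between fractions.

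All 3 genes placed here in the cytokinesis group had a higher mean in Eomes+ cells, with a median of 0.45 log2, and none passed the test. The shared sign depends on this grouping. Some genes described above also have parts in cytokinesis, the central spindle or the midzone. Of these, Plk1 (-0.79 log2), Kif20a (-0.30), Aurkb's partner Birc5 (-0.30) and Prc1 (-0.17) were lower. Kif23 (0.34) and Aurkb (0.41) were higher. Ect2, the exchange factor that activates RhoA at the cleavage furrow, had 7.23, 7.40 and 8.03 log2 in Eomes+ cells, against 7.15, 6.64 and 7.53 in Eomes- cells (0.45, SE 0.35). Anln, the scaffold anillin, had 6.95, 8.52 and 8.83 log2 in Eomes+, against 6.35, 7.54 and 8.77 in Eomes-. Its difference of 0.54 log2 (SE 0.74) was the highest of the 36 and had the largest SE, and the means of its replicate numbers spanned 2.14 log2. Racgap1, the centralspindlin partner of KIF23, differed by 0.04 log2 (SE 0.21).

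Comparison within each replicate number gave 3 different pictures. The median difference of the 36 genes was -0.34 log2 for number 1, 0.15 for number 2 and -0.07 for number 3, whereas the medians over all genes were -0.01, -0.02 and -0.03. The sign was lower in all 3 numbers for 7 members, Plk1, Birc5, Cenpa, Cenpe, Cenpf, Kif11 and Kif20a (19.4%, beside 17.3% of all genes), and higher in all 3 for 5, Bub1b, Kif2c, Kif23, Anln and Ect2 (13.9%, beside 14.0%). These shares lay near those of all genes. Near-equal arrays gave the sign of Kif20a in number 2 (-0.00072 log2) and that of Bub1b in number 3 (0.013 log2). The labels do not say that arrays of one number were prepared together.

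**Figure D3:**
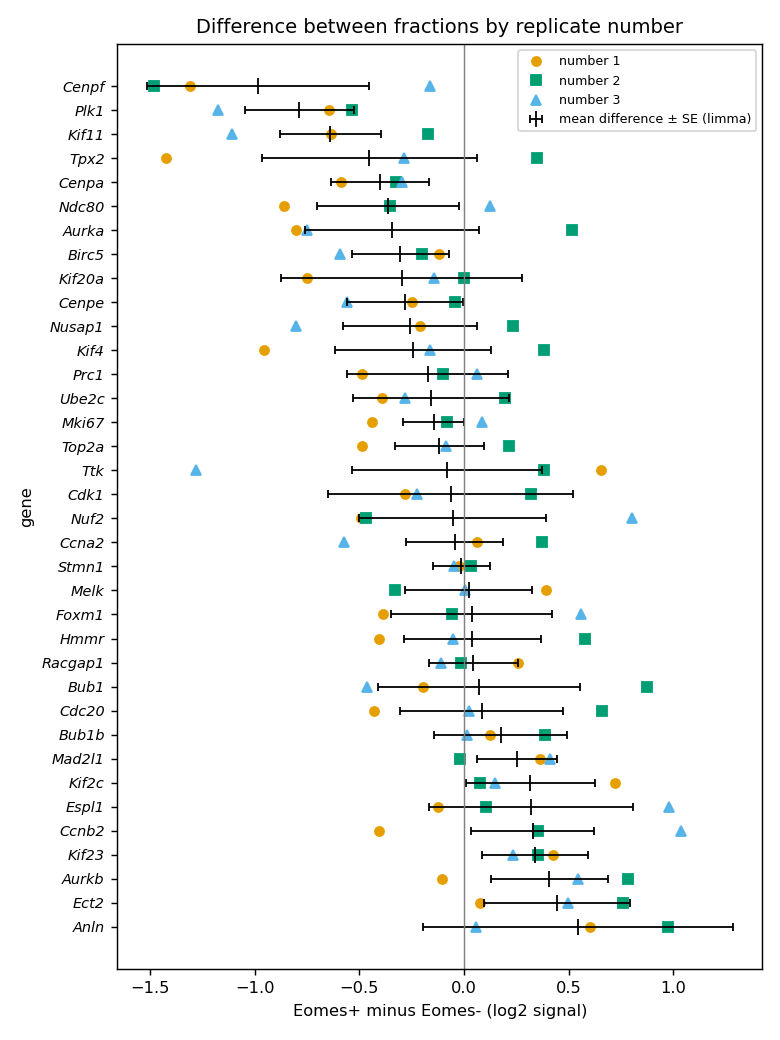
Eomes+ minus Eomes- difference in log2 signal for each of the 36 mitosis genes, for replicate numbers 1, 2 and 3 (coloured markers) and as the mean ± SE of the limma fit (black), ordered by the mean. Only Plk1, Kif11, Cenpa, Birc5, Cenpe, Cenpf and Kif20a have all 3 markers below 0, with the number 2 marker of Kif20a almost at 0. The number 2 markers tend to lie right of the number 1 markers.

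The mean over the 36 genes was 8.65, 8.99 and 9.29 log2 on the Eomes+ arrays and 8.92, 8.86 and 9.39 on the Eomes- arrays. For 19 members array 3 was the highest of its fraction in both fractions (52.8%, beside 25.8% of all genes), among them Cdk1, Kif20a, Ube2c, Anln and Bub1. It was the lowest in both fractions for 2 members, Cenpa and Stmn1 (5.56%, beside 27.0%). Among the 79 tested further G2 and mitosis genes described below, 25 (31.6%) were highest on array 3 in both fractions.

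Markers of other cells were high on the same arrays. All 20 tumour and fibroblast genes and all 19 macrophage genes were highest on array 3 in both fractions, at list means of 11.62 and 11.11 log2 on Eomes+ array 3 and 11.67 and 11.08 on Eomes- array 3, while 14 of 15 T cell identity genes were lowest there, at 10.65 and 10.85. Between the fractions 20 of 20 tumour and 16 of 19 macrophage genes had a higher mean in Eomes+ (medians 0.30 and 0.30 log2). By replicate number the list medians were 0.19, 0.90 and -0.15 log2 for tumour genes and 0.34, 0.58 and -0.01 for macrophage genes, beside the mitosis medians of -0.34, 0.15 and -0.07 for numbers 1, 2 and 3. Both marker medians had the sign of the mitosis median in numbers 2 and 3 and the opposite sign in number 1. Of 6 genes listed for CD4 and regulatory T cells, 5 had a lower mean in Eomes+ (median -0.60 log2). The differences were -1.70 for Cd40lg, -0.87 for Il2ra, -0.85 for Ctla4, -0.34 for Foxp3, -0.24 for Cd4 and 0.32 for Ikzf2. Cd4 had 7.16, 6.74 and 7.37 log2 in Eomes+, against 7.29, 7.10 and 7.58 in Eomes-. Of the tested markers, 3 of 3 B cell genes (median 0.47 log2), 4 of 5 dendritic cell genes (0.29), 3 of 4 endothelial genes (0.51) and 2 of 3 neutrophil genes (0.41) also had a higher mean in Eomes+. The B cell gene Ighm had 10.03, 10.42 and 9.02 log2 in Eomes+, against 9.10, 9.12 and 8.95 in Eomes-. The defining markers Ncr1 (NK cells), Ms4a1 (B cells), Flt3 and Xcr1 (dendritic cells), Cxcr2 (neutrophils) and Kdr and Tek (endothelium) lay below the filter. The part of other cells in the mitosis gene values was not tested directly. With the mean of the tumour and macrophage lists as a covariate, limma called 0 mitosis genes, 4 of 36 had an unadjusted p under 0.05 (11.1%, beside 9.21% of all genes in that fit), and 25 were lower (69.4%, beside 54%), with a median difference of -0.124 log2. Without both arrays of number 3 the median was -0.018 log2. With that covariate and the replicate number as a block, 5 members had an unadjusted p under 0.05 (13.9%, beside 8.18% of all genes). With the block alone, without both arrays of number 1, 2 or 3, the shares were 2.78%, 13.9% and 5.56%, beside 7.71%, 7.52% and 11.2%. The log2 ratio of 3' to 5' Gapdh signal, a sign of RNA quality, was 1.88, 1.77 and 1.55 on the Eomes+ arrays, against 1.54, 1.07 and 1.11 on the Eomes- arrays, with all Eomes+ ratios above all Eomes- ratios. The same ratio for Actb was 0.08, 0.17 and 0.13 on the Eomes+ arrays, against 0, 0.05 and 0.11 on the Eomes- arrays, and overlapped between fractions. The part of RNA quality was not tested.

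**Figure D4:**
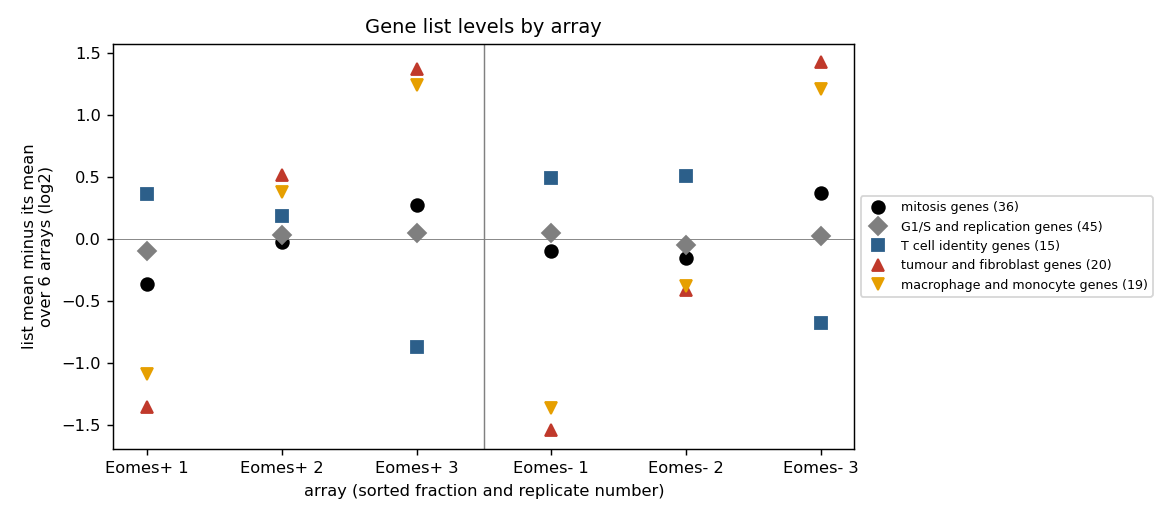
Mean log2 signal of 5 gene lists on each array, minus the list's own mean over the 6 arrays, with the number of genes in brackets and Eomes+ arrays left of the line. Tumour and macrophage genes are highest on array 3 of both fractions, T cell genes lowest there, mitosis genes are also highest on array 3 over a smaller range, and replication genes stay near 0.

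Other genes of the cell cycle gave no call either. Of 79 tested of 84 further G2 and mitosis genes, 0 passed over all genes, 46 had a lower mean in Eomes+ and the median difference was -0.03 log2. Plk4, the kinase that starts centriole duplication, had 7.92, 7.72 and 8.54 log2 in Eomes+, against 8.89, 8.86 and 8.95 in Eomes- (-0.84, SE 0.28; limma unadjusted p = 0.0221). Ska1, a subunit of a microtubule-binding complex at kinetochores, had 5.54, 6.30 and 6.92 log2 in Eomes+, against 7.28, 6.74 and 7.75 in Eomes- (limma unadjusted p = 0.0565), with Eomes+ array 1 below the filter. For Plk4 the groups did not overlap, and for Ska1 they did. Of the 79 genes, 4 had separate groups, all lower in Eomes+.

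Of 17 tested APC/C genes 0 passed and 10 had a lower mean (median -0.07 log2). Anapc11, the catalytic RING subunit, had 9.54, 9.51 and 9.38 log2 in Eomes+, against 10.16, 10.53 and 10.19 in Eomes- (-0.82, SE 0.19; limma unadjusted p = 0.00401). Fzr1, which encodes CDH1, the APC/C activator of late mitosis and G1, had 9.04, 8.57 and 8.97 log2 in Eomes+, against 9.30, 9.47 and 9.63 in Eomes- (-0.60, SE 0.23; limma unadjusted p = 0.0346). Both separated the fractions. Of the 17 genes, 3 did so, all lower in Eomes+.

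Of 13 tested genes of the MuvB, E2F and pocket protein group, 0 passed and 9 had a lower mean (median -0.15 log2), with the E2F partner gene Tfdp2 at -0.53 (SE 0.27) and the pocket protein gene Rbl2 at -0.51 (SE 0.31). Of 45 tested G1/S and replication genes 0 passed, and the median was -0.02 log2. Cdt1, the licensing factor that loads the replicative helicase, had 11.03, 10.90 and 10.96 log2 in Eomes+, against 10.50, 10.33 and 10.63 in Eomes- (0.48, SE 0.15; limma unadjusted p = 0.0181), while the thymidine kinase gene Tk1 had 8.69, 8.65 and 8.57, against 9.26, 9.12 and 9.04 (-0.50, SE 0.20; limma unadjusted p = 0.0414). Both genes had separate groups, in opposite directions. Of the 45 genes, 3 had separate groups higher in Eomes+ and 2 lower. Of 18 tested CDK inhibitor and quiescence genes 0 passed and 12 had a lower mean (median -0.03 log2), with the antiproliferative gene Btg2 at 10.28, 10.20 and 9.72 log2 in Eomes+, against 10.73, 11.09 and 10.38 in Eomes- (-0.67, SE 0.26; limma unadjusted p = 0.0369). Cdkn1b, which encodes the CDK inhibitor p27, differed by -0.47 log2 (SE 0.30). Groups did not overlap for 2 of these 18 genes and for 1 of the 13 MuvB, E2F and pocket protein genes, all lower in Eomes+. The limma adjusted p of each of these 10 pathway genes was 1.00.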

How the data were processed

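Values were the deposited log2 microarray signals of 45101 probe sets on 6 arrays, between 1.68 and 14.95. The submitters' processing notes name Transcriptome Analysis Console and MAS5, without versions or roles, and the summary method stays unstated in the sources used here. The log2 scale of the deposited values was read from their range. Control probe sets (64) were left out. The platform annotation gave 1 gene for 34945 probe sets, several for 932 and none for 9160, and symbols were updated through RefSeq (GRCm38.p6). Probe sets above their array's 40th percentile on at least 3 arrays were kept (27766), and the brightest stood for each of 12571 genes. limma 3.58.1 (R 4.3.3) tested Eomes+ against Eomes- with lmFit and trended eBayes (two-sided, Benjamini-Hochberg over all genes, threshold 0.05) and without a replicate block. The fit was tested on simulated data with noise drawn independently for each array. That test does not cover the shared deviation of same-numbered arrays described below. The text names Eomes, all 36 measured members and, per pathway list, the 2 genes of smallest p. Members and lists were chosen with earlier results of these data known. Alternatives changed the filter, scaling, probe set, variance model, covariates and samples. With 3 arrays a group, precision is limited.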

Additional observations from a re-analysis of the deposited data

How the results depend on the processing

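limma called 0 of the 36 mitosis genes at an adjusted p under 0.05 as reported and in all 26 alternatives, 3 of which (the replicate block without 1 number) were added once the data had been seen. Across the table it called 17 with the replicate block, 253 with array weights, 8 with the covariate for other cells, 19 with both block and covariate, and 0, 0 and 68 with the block without replicate 1, 2 or 3, against 0 as reported. Genes at an unadjusted p under 0.05 numbered 409 as reported, 1276 with the block, 3368 with array weights, 1158 with the covariate, 1028 with block and covariate and 89 after centring on T cell markers, between 119 (without both arrays of number 2) and 814 (without number 3) with arrays left out, and 969, 945 and 1404 with the block without replicate 1, 2 or 3. The median difference of the mitosis genes, -0.058 log2, was 0.150 with array weights, -0.124 with the covariate and -0.273 with block and covariate. Leaving arrays out gave between -0.242 and 0.119, with positive values without Eomes+ replicate 1 (0.082), Eomes- replicate 3 (0.119) or both arrays of number 1 (0.017). Centring on T cell markers gave medians of 0.200 for all genes and 0.158 for mitosis genes. Then 12 members were lower against 21 as reported (33.3%, beside 23.5% of all genes). Of the members, 0 reached an unadjusted p under 0.05 and 0 separated (0.708% and 3.49% of all genes did). With array weights 12 were also lower (33.3%, beside 52.2%). Members at an unadjusted p under 0.05 numbered 2 as reported. The block gave 3 (8.33%, beside 10.2% of all genes) and array weights 8 (22.2%, beside 26.8%). The covariate gave 4, block and covariate 5 and the probe set of largest variance 1. Leaving arrays out gave 0 to 2, and the block without replicate 1, 2 or 3 gave 1, 5 and 2. Members with separate groups numbered 3 (8.33%, beside 7.71% of all genes), and 4 to 12 with arrays left out, since fewer arrays separate more easily. With a single array left out they numbered 4 to 8 (11.1% to 22.2%, beside 11.8% to 22.8%). Without both arrays of number 1, 2 or 3, with or without the block, they numbered 7, 8 and 12. Those shares were 19.4%, 22.2% and 33.3%, beside 26.3%, 19.6% and 34.3%. The highest minus the lowest array mean was 0.740 log2, 1.885 after centring on T cells and 0.335 without both arrays of number 3. The members whose sign did not turn in any setting were Plk1, Kif11, Cenpa, Cenpe, Cenpf, Ndc80 and Birc5 (lower), and Aurkb, Ect2, Kif23 and Mad2l1 (higher). Eomes passed with the block, array weights, the covariate, block and covariate, and the block without replicate 3 (limma adjusted p between 0.00942 and 0.0273). With array weights Plk4, Anapc11, Cdt1 and Btg2 passed (limma adjusted p = 0.0461, 0.0366, 0.0477 and 0.0494). The cause of these shifts was not tested. Deviations of same-numbered arrays correlated over all probe sets at 0.595, 0.0989 and 0.628 for numbers 1, 2 and 3, weakly for number 2. Eomes- array 2 correlated more with Eomes+ array 1 (0.302). Eomes+ array 2 correlated most with Eomes- array 2 (0.0989, against -0.030 and -0.032 with Eomes- arrays 1 and 3). The replicate block cannot move a mean difference in this balanced design, and with it the limma adjusted p was 0.364 for Plk1 and 0.389 for Kif11. The Plk1 difference was -0.569 log2 with array weights and after centring on T cells, and -1.013 with block and covariate, and that of Kif11 was -0.299 with array weights and -1.004 with block and covariate.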
